A study of Mus musculus with 96 samples.

Results

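In each of 4 cultures of EL4 cells, the 8 cells with the highest expression of G2/M genes were compared with the 8 cells with the lowest. The cells were chosen by a G2/M score, which is the mean log2(TPM + 1) of Ccnb1, Cdc20, Plk1, Top2a, Mki67, Cenpf, Cenpe, Tpx2, Aurka and Ube2c in a cell. Of 96 sequenced cells, 95 had at least 3000 genes with TPM above 0 and were ranked within their culture, which left 32 high cells and 32 low cells. Together these 64 cells are the members compared, and the 31 cells between them entered no side. EL4 is a T-lymphoma line of C57BL/6 mice (the labels' name, C57BL/6 N in the study's methods). The cells carried an shRNA against luciferase (shLuc, the WT cells) or against Ctcf (shCTCF, the CTCF-KD cells), were sorted for GFP and were taken 5 days after infection. Cultures shLuc #1 and shCTCF #1 formed one experiment, and shLuc #2 and shCTCF #2 the other. All 4 cultures carried a hairpin vector, and none is an uninfected line. Each culture was loaded on its own circuit of the Fluidigm C1 system, which captures single cells in microfluidic chambers, and the effects of culture and circuit cannot be told apart. The unit of replication was the culture, within which high and low cells were compared with each other.

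A dividing cell copies its DNA in S phase, prepares for division in G2 and separates its chromosomes in M phase. Many genes of mitosis are transcribed late in the cycle. Their products include the cyclin B kinase that drives entry into mitosis, the spindle that moves the chromosomes, the kinetochores that attach them, and the anaphase-promoting complex (APC/C), a ubiquitin ligase that destroys cyclin B and securin at anaphase and keeps many of these proteins low in G1. In lymphoma lines a large share of cells is in cycle at any time, so unsynchronized cells differ in their level of these genes.

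The cells of both sides carried the transcripts of T cells. Cd3d and Lck, a chain of the T cell receptor complex and its kinase, had reads in 95 of 95 cells, and Cd3e, Cd3g and Thy1 in 94. Cd5 had reads in 22 of 32 high and 23 of 32 low cells. Another 18 genes were taken as markers of other cell types, such as B cells, myeloid cells, erythroid cells and stroma. Of these, 11 were at 0 in all cells kept, among them Ms4a1, Lyz2 and Epcam. The summed TPM of the 18 markers was 0 to 208 in high cells and 0 to 587 in low cells, with medians by culture of 0.845 to 18.6 and of 23.96 to 34.9. Pecam1, with reads in 48 cells, and Cd68, with reads in 20, were the markers seen most often. The part of these transcripts in the differences below was not tested.

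Ctcf, the target of the hairpin, was itself higher in high cells. Over all cells kept, its mean log2(TPM + 1) was 4.37 ± 2.73 (SD, n = 24 cells) in shLuc #1 and 3.72 ± 2.62 (SD, n = 23) in shLuc #2. It was 2.54 ± 2.26 (SD, n = 24) in shCTCF #1 and 4.31 ± 2.39 (SD, n = 24) in shCTCF #2. The culture labelled shCTCF #2 thus lay between both shLuc cultures, while shCTCF #1 lay below them. These are means over single cells, some without Ctcf reads, and shCTCF #2 had the fewest reads per cell (median 131098). The study itself reported lower CTCF mRNA by RT-qPCR and lower protein by Western blot in both shCTCF #1 and shCTCF #2. In shLuc #1, Ctcf had reads in 8 of 8 high cells and 5 of 8 low cells, and in shLuc #2 in 8 and 2. In shCTCF #1 it had reads in 7 high and 4 low cells, and in shCTCF #2 in 7 and 5. The difference between sides was 3.52 and 4.11 in the shLuc cultures and 1.24 and 1.44 in the shCTCF cultures, with a mean of 2.58 ± 0.66 (SE, 4 cultures). It was positive in 4 of 4 cultures but did not pass the test over all genes (limma, adjusted p = 0.306, and 0.0511 among the more highly expressed genes described below).

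The 4 cultures differed in the shape of the score. In shLuc #1 the 24 cells fell into 10 above 4 and 13 below 2, which left 1 cell between these levels, and in shLuc #2 there were 11 above 4 and 9 below 2 of 23. In shCTCF #1 there were 19 cells above 4 and 2 below 2, and in shCTCF #2 13 and 5. The median score was 7.52 in the high and 0.45 in the low cells of shLuc #1, and 7.25 and 0.63 in shLuc #2. It was 6.93 and 3.04 in shCTCF #1 and 6.27 and 1.55 in shCTCF #2. The low cells of shCTCF #1 were thus not without G2/M transcripts, and a median of 7 of the 10 score genes had reads in them, against 2 in the low cells of shLuc #1 and 1 in those of shLuc #2. All these values describe the choice of cells and carry no test.

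**Figure D1:**
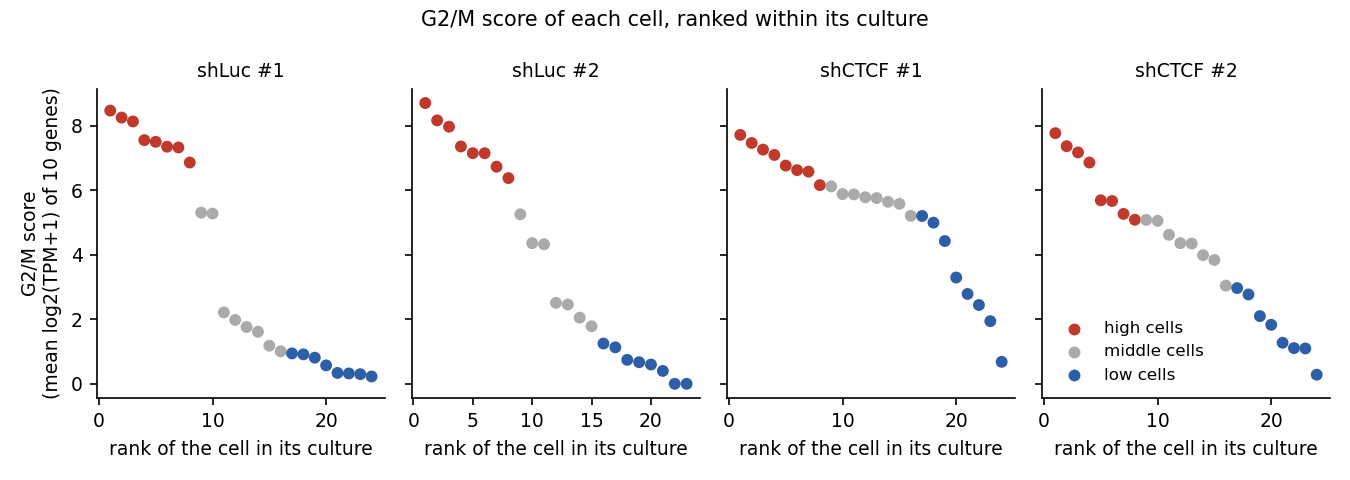
G2/M score (mean log2(TPM+1) of the 10 score genes, y axis) of each of 95 cells against its rank within its culture (x axis), with the 8 high cells of a culture in red, the 8 low cells in blue and the cells between in grey. In shLuc #1 the score drops from 6.86 to 5.30 between rank 8 and 9, while in shCTCF #1 and shCTCF #2 the curve passes both limits without a gap. The low limit of shLuc #1 is also passed without a gap.

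At the limits of the sides, the last high cell of shLuc #1 had a score of 6.86 and the next cell 5.30, and in shLuc #2 these values were 6.37 and 5.25. In shCTCF #1 they were 6.16 and 6.12, and in shCTCF #2 5.08 and 5.08. The low side began at 0.94 and 1.25 for shLuc #1 and #2 and at 5.20 and 2.97 for shCTCF #1 and #2, and the next cells above had 1.01, 1.78, 5.20 and 3.04. In the shCTCF cultures both limits therefore cut through cells with almost equal scores, most closely at the low limit of shCTCF #1. The low limit of shLuc #1, between 0.94 and 1.01, did so as well.

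The 10 score genes are described here by their TPM over the cells they helped to choose. Plk1, the polo-like kinase of mitotic entry and spindle assembly, was at 16.9 to 1179 TPM with a median of 382 in the 32 high cells, and it had reads in 5 of 32 low cells. No low cell of either shLuc culture held a Plk1 read, while 4 of 8 low cells of shCTCF #1 did, up to 190 TPM. Ube2c, the E2 enzyme of the APC/C, was at 37.5 to 3482 TPM with a median of 1017 in high cells and had reads in 8 low cells. Ccnb1 (cyclin B1) had a median of 143 TPM in high cells and reads in 12 low cells. Aurka, a kinase of the centrosome and spindle poles, had reads in 28 of 32 high cells and in 3 low cells. Top2a, the topoisomerase that untangles sister chromatids, was the score gene seen most often in low cells, with reads in 22 of them, but at a median of 3.74 TPM against 512 TPM in high cells. Differences on the log2(TPM + 1) scale ran from 3.78 for Cenpe, a kinetochore motor, to 8.20 for Ube2c.

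Many genes of late G2 and mitosis hold a CCAAT box, bound by NF-Y, and a cell cycle homology region (CHR), bound by the DREAM and B-MYB complexes, close to their start. Promoter windows of 250 bases before to 50 bases after the start were taken from RefSeq (GRCm38.p6) and searched for CCAAT and, as CHR core, for TTTGAA or TTCGAA, each on both strands. Of the 10 score genes 9 had a window. All 9 held CCAAT and 7 held CCAAT and a CHR core in the same window, against 7.53% of 32851 windows of all genes. The windows of Plk1, Aurka, Ube2c and Prc1 are shown because these genes had the highest statistics among those with both words. Plk1, Aurka and Ube2c are score genes, and Prc1, a spindle midzone protein, is a gene outside the score. Capitals mark the CCAAT boxes and CHR cores on either strand.
Plk1 (chr7:122159185-122159484, plus strand): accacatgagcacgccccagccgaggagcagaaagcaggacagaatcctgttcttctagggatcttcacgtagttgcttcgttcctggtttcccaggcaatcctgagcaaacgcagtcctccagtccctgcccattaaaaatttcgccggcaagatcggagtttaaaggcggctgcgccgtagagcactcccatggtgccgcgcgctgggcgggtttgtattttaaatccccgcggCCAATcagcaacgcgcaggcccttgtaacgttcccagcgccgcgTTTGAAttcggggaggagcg
Aurka (chr2:172370521-172370820, minus strand): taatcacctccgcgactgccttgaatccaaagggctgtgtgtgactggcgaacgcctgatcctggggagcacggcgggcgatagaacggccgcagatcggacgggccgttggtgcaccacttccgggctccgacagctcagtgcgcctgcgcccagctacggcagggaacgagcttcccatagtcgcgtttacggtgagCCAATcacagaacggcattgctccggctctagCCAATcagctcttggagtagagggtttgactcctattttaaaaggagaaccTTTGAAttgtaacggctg
Ube2c (chr2:164769679-164769978, plus strand): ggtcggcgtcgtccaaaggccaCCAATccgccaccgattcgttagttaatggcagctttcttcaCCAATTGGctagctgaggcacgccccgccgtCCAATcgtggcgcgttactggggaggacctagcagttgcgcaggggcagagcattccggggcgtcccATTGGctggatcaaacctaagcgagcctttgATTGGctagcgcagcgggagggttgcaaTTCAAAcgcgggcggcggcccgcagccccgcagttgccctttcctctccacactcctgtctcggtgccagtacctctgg
Prc1 (chr7:80294201-80294500, plus strand): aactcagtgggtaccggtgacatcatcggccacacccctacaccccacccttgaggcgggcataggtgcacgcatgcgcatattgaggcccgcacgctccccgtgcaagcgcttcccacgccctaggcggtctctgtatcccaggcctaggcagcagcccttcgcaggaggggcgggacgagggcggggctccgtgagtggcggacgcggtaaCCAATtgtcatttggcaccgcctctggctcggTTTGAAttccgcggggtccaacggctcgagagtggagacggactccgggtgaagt

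Counted from the start, with the first transcribed base as 1, the CHR core lay at 31 to 36 in Plk1 and at 33 to 38 in Aurka, and the nearest CCAAT at -14 to -10 and at -19 to -15. In Ube2c the core lay on the opposite strand at -29 to -24, and the window held 6 CCAAT matches, 2 of which overlap. In Prc1 the core spanned the start, from -5 to 1. Among 207 genes outside the score called higher in the fit on the more highly expressed genes, described below, 169 had a window. A CHR core was present in 46.7% of these, CCAAT in 62.1% and both in 1 window in 34.9%. Over the 6361 genes of that fit with a window, 16.8% held a CHR core, 43.7% CCAAT and 7.12% both in 1 window. These matches describe letters in a window and are not sites of binding.

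High cells held more detected genes and fewer reads. The median number of genes with TPM above 0 was 5216.5 in the high and 4425.5 in the low cells of shLuc #1, 4919 and 3922 in shLuc #2, and 5974 and 5197.5 in shCTCF #2. In shCTCF #1 it was 6010.5 in high and 6068.5 in low cells, so this was the culture in which the sides did not differ in this way. The mean of the 4 differences was 627 ± 467 genes (SD, 4 cultures), higher in 3 of 4 cultures, by an exact sign-flip permutation test over cultures with two-sided p = 0.25, where 0.13 is the smallest p that 4 cultures allow. Reads per cell, recovered from the TPM values, were lower in high cells in 4 of 4 cultures, with a mean difference of -35545 ± 15855 (SD, exact two-sided p = 0.13). The medians were 208218 and 247586 reads in shLuc #1, 203532 and 241179 in shLuc #2, 207574 and 259098 in shCTCF #1, and 123139 and 136779.5 in shCTCF #2. With every cell thinned to 40000 reads, the difference in genes was 563 ± 388 (SD), again higher in 3 of 4 cultures. Within cultures, Pearson's r of the score with genes detected was 0.50 and 0.41 for shLuc #1 and #2 and 0.38 and 0.48 for shCTCF #1 and #2, over 23 or 24 cells that share a library preparation. The part of genes detected in the differences of single genes was not tested beyond the alternatives given with them.

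**Figure D2:**
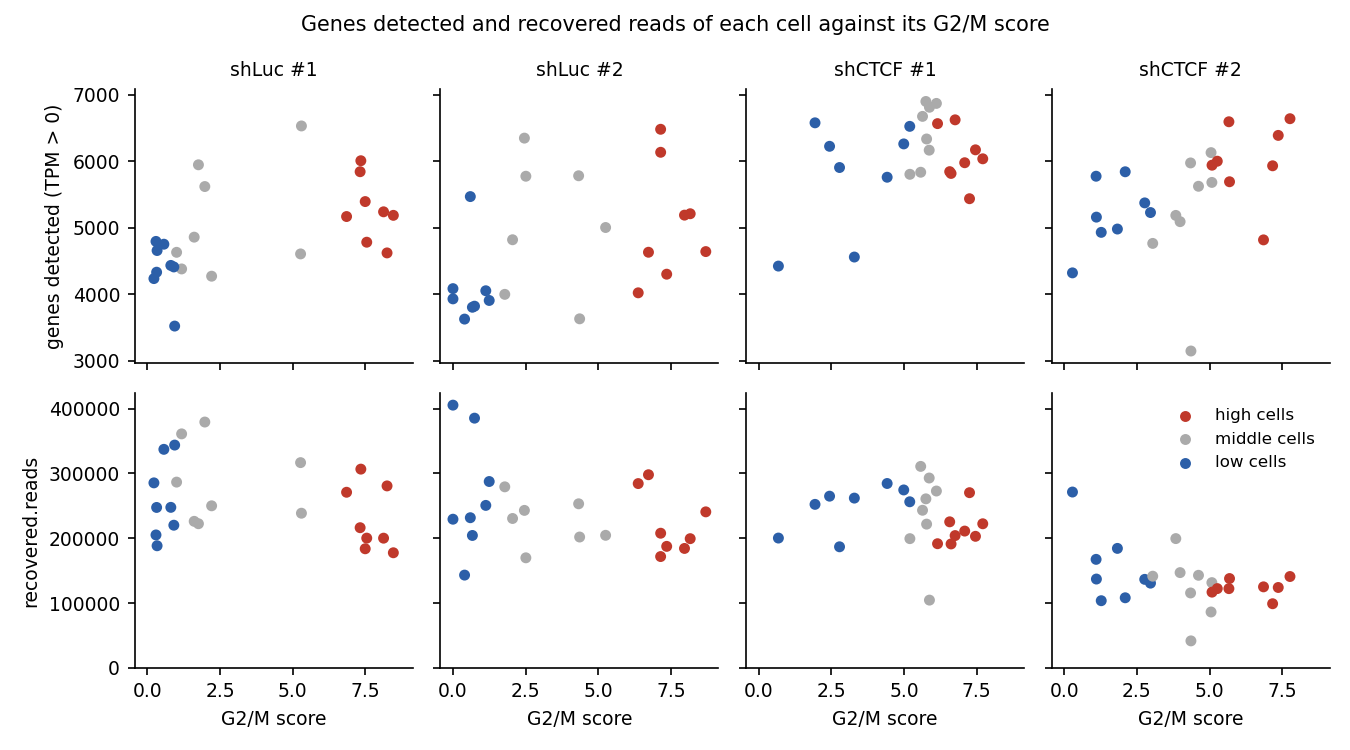
Genes detected (TPM above 0, upper row) and recovered reads (lower row) of each cell against its G2/M score, by culture, with high cells in red, low cells in blue and the cells between in grey. In shLuc #1, shLuc #2 and shCTCF #2 the high cells have the higher median of genes detected, and in shCTCF #1 the medians of high and low cells are 6010.5 and 6068.5.

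The mean log2(TPM + 1) of the 8 cells of a side was compared between sides for 11970 genes outside the score, with the culture as a block. With limma and adjustment over all genes, no gene passed a threshold of 0.05 as higher (0%) or lower (0%), and 0.116 was the lowest adjusted p. Before adjustment, 1146 genes were higher (9.57%) and 212 lower (1.77%) at p under 0.05. In 4 of 4 cultures 1652 genes were higher (13.8%) and 359 lower (3%). The median difference over all genes was 0.19, and by culture 0.12 and 0.20 for shLuc #1 and #2 and 0.01 and 0.16 for shCTCF #1 and #2, and the differences below are to be read against this shift. When the slope of each gene on genes detected was removed within cultures, the median was -0.02, with 446 genes higher and 430 lower at an unadjusted p under 0.05 and none called.

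Whether genes were called depended on the filter on low values, and on other choices: with this filter kept, 11 cells a side gave 56 genes higher and 1 lower, and no replicate block gave 18 higher. The 11970 genes include 104 listed at 0 in all 64 compared cells, and limma's variance prior had 2.80 degrees of freedom. In the fit on the 7833 genes whose log2(TPM + 1) averaged above 1 over the 95 cells, it had 13.5, and 207 genes were called higher (2.64%) and 14 lower (0.179%). All but 2 of the 207 were higher in 4 of 4 cultures, and all 14 were lower in 4 of 4. The median difference of the 207 was 2.92 and of the 14 it was -1.99, beside 0.38 over all 7833 genes. That filter averages over cells of both sides, so a gene near 0 in low cells can pass through the high cells, and 158 of the 207 averaged above 1 in the low cells. In an alternative added after seeing the data, the same filter was taken over the 31 cells of neither side, and of 7920 genes 202 were called higher (2.55%) and 13 lower (0.164%), of which 200 and 13 were among the 207 and the 14. The fit on the 7833 genes, repeated without shLuc #1, called 60 genes higher and 5 lower, and without shLuc #2, 45 and 2. Without the culture labelled shCTCF #2 the counts were 145 and 7, and without shCTCF #1 289 and 18. With the slope on genes detected removed, 62 were called higher, all of them among the 207, and 17 lower, of which 12 were among the 14. On the scale of the mean TPM of the 8 cells none was called in either direction. Each of the 207 genes kept its sign in the fits of the 7833 genes. Below, an adjusted p is that of the fit on all 11970 genes and a filtered adjusted p that of the 7833, and called without further words means a filtered adjusted p under 0.05. Both fits adjust over all their genes, and the differences and standard errors are those of the first. A filtered adjusted p therefore rests on another standard error than the one printed beside it.

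Nusap1, Fam64a, Prc1 and Kif2c, which act in mitosis, had the 4 highest statistics outside the score. Nusap1, a microtubule-binding protein of the spindle, had no reads in any low cell of shLuc #1 and shCTCF #2, in 1 low cell of shLuc #2 and in 2 of shCTCF #1. In high cells its TPM was 44.8 to 289 with a median of 104 in shLuc #1, 14.995 to 533 with a median of 130 in shLuc #2, 22.3 to 125 with a median of 54.7 in shCTCF #1, and 0 to 300 with a median of 91.5 in shCTCF #2. Only 1 of 32 high cells was without a Nusap1 read. The difference was 6.02 ± 0.53 (SE, adjusted p = 0.116, filtered 6.21e-05, and 0.000107 with the filter over the cells of neither side). Fam64a, also named Pimreg, a regulator of the metaphase to anaphase transition, had reads in 26 high and 5 low cells and a difference of 5.19 ± 0.43 (SE, adjusted p = 0.116, filtered 0.000152), which ran from 4.79 to 5.73 over the cultures. Prc1, which bundles antiparallel microtubules at the midzone, had a median of 178 TPM in high cells and reads in 8 low cells, with a difference of 6.27 ± 0.63 (SE, filtered adjusted p = 6.21e-05). Kif2c, a kinesin that depolymerizes microtubules at kinetochores, had reads in 31 high and 8 low cells and a difference of 6.13 ± 0.63 (SE, filtered adjusted p = 7.44e-05). Where the low cells hold no reads, such a difference depends on the pseudocount of 1 TPM and is no estimate of a fold change.

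Genes expressed in nearly every cell differed too, and the pseudocount matters little where all compared cells hold reads. Bub3, a protein of the spindle checkpoint, had reads in 32 high and 30 low cells, at a median of 940 TPM (430 to 2249) against 248 TPM (0 to 995). Its difference was 3.65 and 2.47 for shLuc #1 and #2 and 2.23 and 2.69 for shCTCF #1 and #2, with a mean of 2.76 ± 0.29 (SE, adjusted p = 0.142, filtered 9.90e-05). In shLuc #1 and in shCTCF #2, 7 of 8 low cells had Bub3 reads. The cell at 0 lowers the low mean there, so the pseudocount enters these differences. Mean TPM in high and low cells was 1569 and 289 in shLuc #1 and 953 and 367 in shCTCF #2. Tubb5, a beta-tubulin, had reads in all 64 cells and was at 1652 to 6580 TPM in high and at 105 to 1859 TPM in low cells, so the sides overlapped over a narrow range, and within shLuc #1 and shLuc #2 they did not overlap. Its difference was 2.47 ± 0.30 (SE, filtered adjusted p = 2.25e-05). Mt1, a metallothionein that binds zinc and copper, had the smallest difference among the 10 highest statistics, 0.66 ± 0.08 (SE, filtered adjusted p = 4.59e-05), and ran from 0.54 to 0.82 over the cultures. Its cells overlapped widely, from 4551 to 30138 TPM in high and from 841 to 27597 TPM in low cells. Ccnf, an F-box cyclin (4.49 ± 0.50, SE), and Hist1h4d, an H4 histone (3.56 ± 0.42, SE), were also among the 10 highest.

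**Figure D3:**
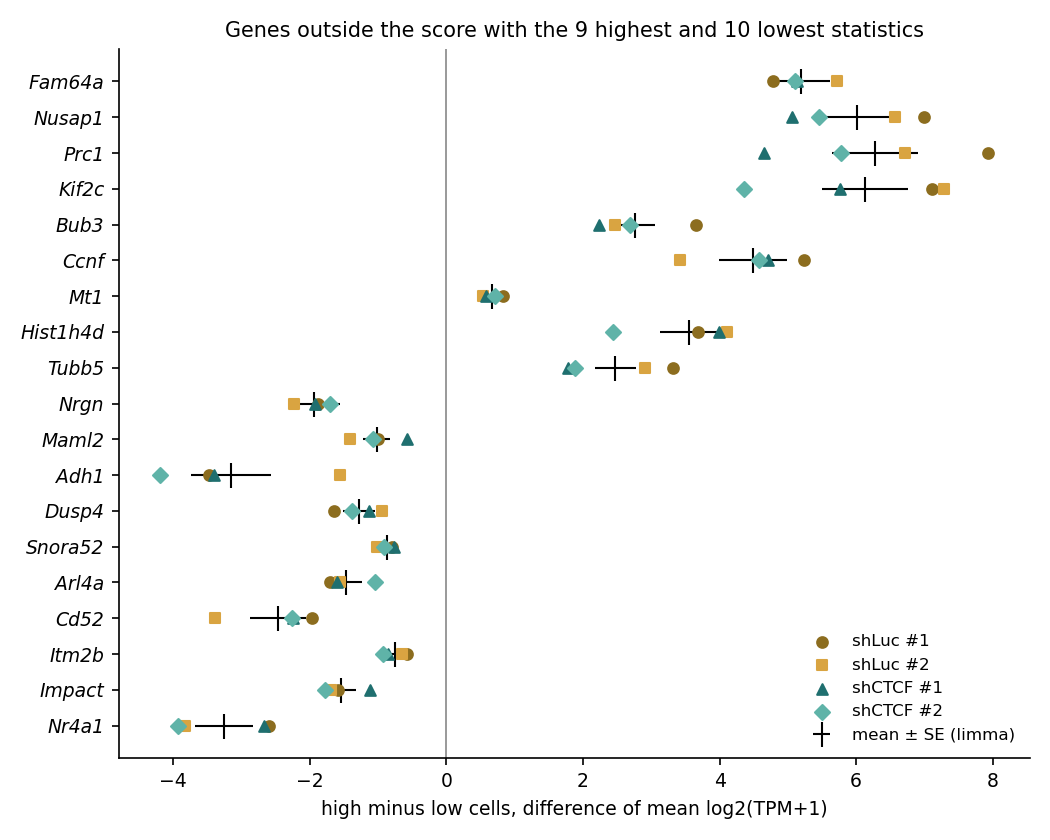
Difference of mean log2(TPM+1) between high and low cells (x axis) for the genes outside the score with the 9 highest and the 10 lowest limma statistics, with one point per culture and a black bar for the mean and its SE. All these genes have the same sign in 4 of 4 cultures, from Mt1 at 0.66 to Prc1 at 6.27 and from Itm2b at -0.75 to Nr4a1 at -3.26.

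Mitotic kinases, cyclins and their regulators were higher in high cells. Of 24 genes of this list that could be tested, 17 were higher at an unadjusted p under 0.05 and none lower, 19 were higher in 4 of 4 cultures, and 14 of the 23 in the filtered fit were called higher. Their median difference was 2.97, against 0.19 for all genes and 0.38 for the genes of the filtered fit. Counts for this list and those below are to be read beside the shares over all genes. At an unadjusted p under 0.05, 9.57% were higher and 1.77% lower, and 13.8% were higher in 4 of 4 cultures. In the filtered fit 2.64% were called higher and 0.179% lower. Aurkb, the kinase of the chromosomal passenger complex, was at a median of 427 TPM with reads in 30 high cells and at 1.82 TPM with reads in 16 low cells, with a difference of 5.37 ± 0.72 (SE, filtered adjusted p = 0.000213). Ccnf had reads in 26 high and 5 low cells (filtered adjusted p = 0.000584). At the other end stood Pkmyt1, an inhibitory kinase of CDK1, with 0.48 ± 0.78 (SE, filtered adjusted p = 0.772), whose differences ran from -1.50 in shCTCF #2 to 3.01 in shLuc #2.

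Genes of the APC/C, securin and separase differed less as a list. At an unadjusted p under 0.05, 13 of 22 were higher and none lower, 7 were called, and the median difference was 1.44. Beside Bub3, which the list holds as a checkpoint protein, Pttg1 (securin, the inhibitor of separase) had a median of 587 TPM in high cells, all of which had reads, and of 16.7 TPM in low cells. The difference of Pttg1 was 4.81 ± 0.85 (SE, adjusted p = 0.237, filtered 0.000524), and it was 6.43 and 7.04 in the shLuc cultures against 2.90 and 2.85 in the shCTCF cultures. Anapc10, a core subunit that helps recognize substrates, had the lowest statistic of the list, at -0.24 ± 0.52 (SE), with reads in 20 high and 19 low cells.

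Kinesins and spindle proteins and the genes of cytokinesis held the highest shares. Of 26 kinesins and spindle proteins 24 were higher at an unadjusted p under 0.05 and in 4 of 4 cultures, and 20 of 24 in the filtered fit were called, with a median difference of 3.46. Numa1, the spindle pole protein, had the lowest statistic among them, with 1.00 ± 0.85 (SE), and the difference was negative in shCTCF #2 (-1.42). Of 14 cytokinesis genes 13 were higher at an unadjusted p under 0.05, 10 of 12 were called, and the median was 3.94. Racgap1, the GTPase-activating subunit of centralspindlin, had a median of 187 TPM in high cells and reads in 12 low cells, with a difference of 5.54 ± 0.76 (SE, filtered adjusted p = 0.000328). Rhoa, the GTPase that drives the contractile ring and serves many other tasks, had reads in all 64 cells and a difference of 0.56 ± 0.34 (SE, filtered adjusted p = 0.604).

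Kinetochore and centromere genes were higher in 29 of 34 cases at an unadjusted p under 0.05, with 16 of 33 called and a median of 2.34. Spc24, a subunit of the NDC80 complex that holds microtubules, had reads in 31 high and 11 low cells and a difference of 5.80 ± 0.75 (SE, filtered adjusted p = 0.000177). Cenpo, a subunit of the constitutive centromere network, differed by 1.78 and 2.52 in the shLuc cultures and by -1.39 and -0.13 in the shCTCF cultures. For condensin and cohesin 12 of 21 genes were higher at an unadjusted p under 0.05, 10 were called and the median was 2.10. Ncaph, a subunit of condensin I, had a difference of 5.04 ± 0.76 (SE, filtered adjusted p = 0.000706). Rad21, the kleisin of cohesin, which loops chromatin together with CTCF, had reads in 32 high and 23 low cells and a difference of 2.64 ± 0.46 (SE, filtered adjusted p = 0.0172). Nipbl, the cohesin loader, had reads in 30 high and 31 low cells and a difference of -0.32 ± 0.46 (SE).

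In all, the lists of mitosis given so far held 141 different genes that could be tested. Of these, 108 were higher at an unadjusted p under 0.05 (9.57% of all genes) and 107 in 4 of 4 cultures (13.8% of all genes). In the filtered fit 77 were called higher (2.64% of all genes). In shCTCF #1 alone 128 of the 141 were higher, as were 50.4% of all genes. The medians of these lists in that culture ran from 1.16 for APC/C genes to 2.19 for kinetochore genes, beside a median of 0.01 over all genes. With each gene's slope on genes detected removed, the medians were 2.27 for mitotic kinases, 1.07 for the APC/C, 2.66 for kinesins, 3.00 for cytokinesis, 1.76 for kinetochores and 1.53 for condensin and cohesin.

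**Figure D4:**
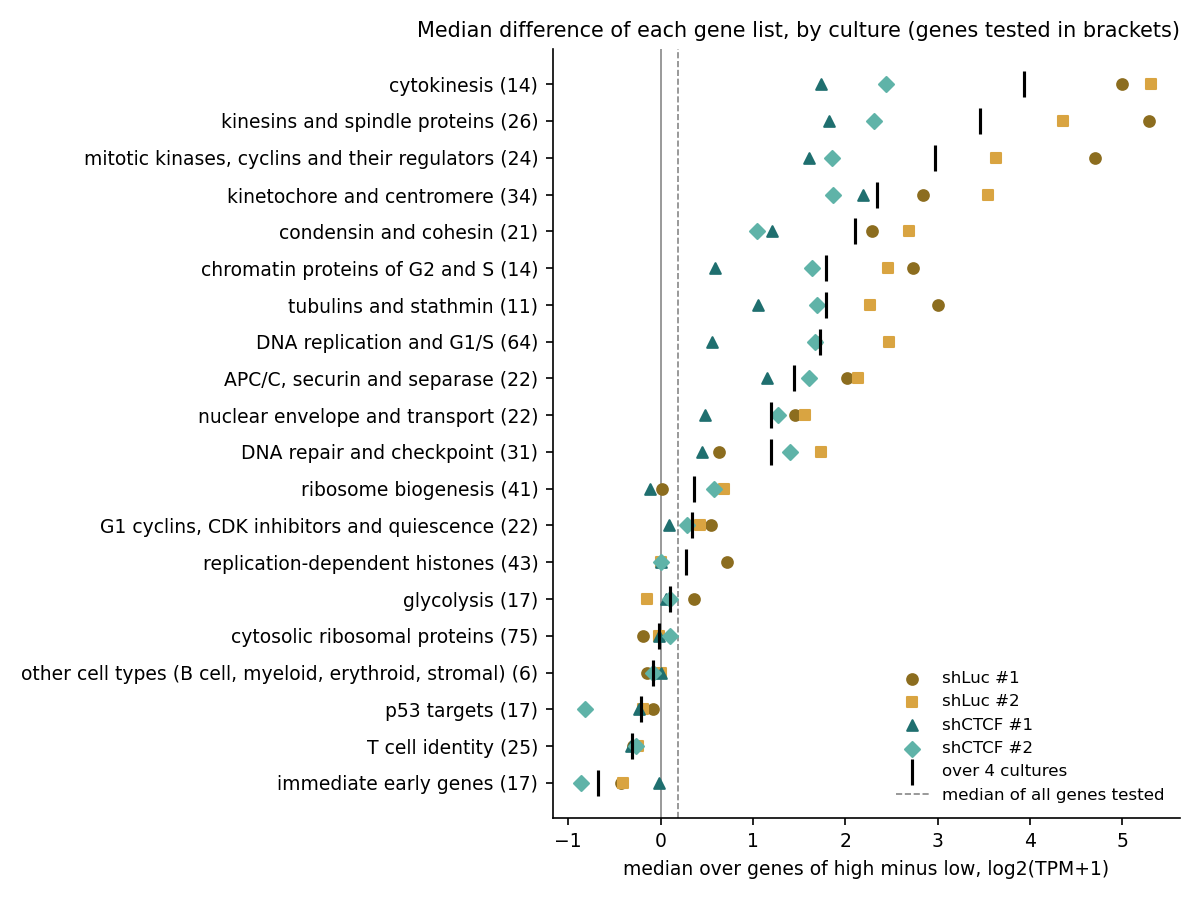
Median over the genes of each list of the high minus low difference in log2(TPM+1) (x axis), with one point per culture and a black bar for the differences averaged over 4 cultures, the number of genes tested in brackets, a dashed line at the median of all genes (0.19) and a grey line at 0. The lists of mitosis lie to the right in every culture, further in shLuc than in shCTCF cultures, and immediate early genes, T cell genes and p53 targets lie at or left of 0.

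Tubulins and stathmin, nuclear transport and chromatin genes had medians below those of the lists of mitosis other than the APC/C list. Of 11 tubulins and stathmin 8 were higher at an unadjusted p under 0.05, 6 of 9 were called, and the median was 1.79. Tuba1b, an alpha-tubulin, had a median of 766 TPM in high and of 145 TPM in low cells, with a difference of 2.48 ± 0.46 (SE, filtered adjusted p = 0.00171). Among 22 genes of the nuclear envelope and transport 11 were higher at an unadjusted p under 0.05, 4 of 21 were called and the median was 1.197. Nup43, a nuclear pore subunit, had a difference of 3.44 ± 0.48 (SE, filtered adjusted p = 0.00503), and Kpna2, an importin alpha, of 3.15 ± 0.50 (SE, filtered adjusted p = 0.00863). The 14 chromatin proteins of G2 and S had a median of 1.79, with 11 higher at an unadjusted p under 0.05 and 4 called. Hmgb2, a DNA-bending protein, had reads in 32 high and 25 low cells and a difference of 2.75 ± 0.48 (SE, filtered adjusted p = 0.0213). Suv39h1, a methyltransferase of histone H3, differed by 4.74 and 3.26 in the shLuc and by 0.11 and -0.94 in the shCTCF cultures.

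Genes of DNA replication and the G1/S transition were higher as well, though less evenly. Of 64 genes 28 were higher at an unadjusted p under 0.05 (9.57% of all genes) and none lower. In 4 of 4 cultures 27 were higher (13.8% of all genes). In the filtered fit 12 of 59 were called (2.64% of all genes), and the median was 1.73. Rfc2, a subunit of the clamp loader, was at a median of 297 TPM in high and of 80.9 TPM in low cells, with a difference of 2.47 ± 0.37 (SE, filtered adjusted p = 0.0114). Mcm6, of the replicative helicase, differed by 2.30 ± 0.46 (SE, filtered adjusted p = 0.0436). The mean level of the list per cell had medians of 3.48 in high and 1.71 in low cells of shLuc #1, 4.21 and 1.62 in shLuc #2, and 4.82 and 2.88 in shCTCF #2. In shCTCF #1 the medians were 4.33 in high and 4.77 in low cells, so the low cells of this culture were not low in replication genes. Over the 4 cultures the difference of medians was 1.47 ± 1.32 (SD, exact two-sided p = 0.25), higher in 3 of 4. Within cultures, Pearson's r of this level with the score was 0.66 and 0.67 for shLuc #1 and #2 and 0.43 and 0.38 for shCTCF #1 and #2. The cells also differed in their number of detected genes, and its part in these correlations was not tested. With the slope on genes detected removed, the median of the list was 0.94.

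DNA repair and checkpoint genes had a median of 1.197, with 8 of 31 higher at an unadjusted p under 0.05 (9.57% of all genes) and 2 of 29 called (2.64% of all genes). Rad51ap1, a protein of homologous recombination, had reads in 22 high and 4 low cells and a difference of 3.32 ± 0.75 (SE, filtered adjusted p = 0.011). In shLuc #1, shLuc #2 and shCTCF #2 its differences lay between 3.99 and 4.49, and in shCTCF #1 the difference was 0.80. Replication-dependent histones could be tested in 43 of 61 cases, with 10 higher at an unadjusted p under 0.05, none lower and a median of 0.28. Most of these transcripts lack a poly(A) tail. The filter on the mean left 8 of them, 4 of which were called. Hist1h4d had a median of 287 TPM with reads in 28 high cells and of 7.03 TPM with reads in 16 low cells (filtered adjusted p = 0.00173). Hist1h2ae, an H2A histone, had reads in 22 high and 5 low cells and a difference of 3.08 ± 0.53 (SE, filtered adjusted p = 0.00712). Reads of near-identical histone copies may be lost or assigned unequally, since only uniquely mapped reads were counted.

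Among 22 regulators of G1 and quiescence, 5 were higher and 2 lower at an unadjusted p under 0.05, beside 9.57% and 1.77% of all genes, with a median of 0.34. Of 18 in the filtered fit, 2 were called higher and 1 lower, beside 2.64% and 0.179% of all genes. Rbl1 (p107), a pocket protein that represses E2F targets and is itself one, had reads in 23 high and 5 low cells and a difference of 2.40 ± 0.53 (SE, filtered adjusted p = 0.0227). Cdkn2d (p19INK4D), an inhibitor of CDK4 and CDK6, had a difference of 2.94 ± 0.79 (SE, filtered adjusted p = 0.0269), between 3.14 and 4.93 in 3 cultures and 0.14 in shCTCF #2. Btg2, an antiproliferative gene, was the one called lower, by -1.49 ± 0.35 (SE, filtered adjusted p = 0.024), at a median of 333 TPM in high and 718 TPM in low cells.

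The genes with the lowest statistics were led by Nr4a1, an immediate early nuclear receptor that T cell receptor signals induce. Nr4a1 had reads in 20 high and 31 low cells. Its TPM was 0 to 158 with a median of 27.7 in the high cells of shLuc #1 and 3.59 to 917 with a median of 159 in the low cells. In shLuc #2 the medians were 71.04 and 412, in shCTCF #1 3.45 and 69.3, and in shCTCF #2 0 and 74.1. The sides overlapped in each culture, but the median was lower in high cells in 4 of 4, and the difference was -3.26 ± 0.43 (SE, adjusted p = 0.181, filtered 0.00419). Of 17 immediate early genes 3 were lower at an unadjusted p under 0.05, none higher, and 2 of 14 were called lower, with a median of -0.68, against 1.77% of all genes lower at that p. Myc, which is in this list, had a difference of 0.50 ± 0.74 (SE) and ran from -2.30 in shLuc #1 to 1.81 in shLuc #2. Ier3 had a difference of 0.79 ± 0.62 (SE), with a change of sign when 6 cells a side were taken (-0.27).

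Itm2b, a membrane protein of the BRICHOS family, was expressed in all 64 cells and lower in high cells in each culture, with medians of 2388 and 3614 TPM in shLuc #1, 1457 and 2300 in shLuc #2, 1399 and 3410 in shCTCF #1, and 1520 and 3029 in shCTCF #2. The ranges overlapped, and the difference was -0.75 ± 0.12 (SE, filtered adjusted p = 0.00293). Impact, an inhibitor of the GCN2 pathway, differed by -1.54 ± 0.21 (SE, filtered adjusted p = 0.00686) and had reads in 31 high and all 32 low cells. Arl4a, a small GTPase, differed by -1.48 ± 0.25 (SE, filtered adjusted p = 0.0346). Cd52, a GPI-anchored peptide of lymphocytes, had reads in 16 high and 22 low cells and a difference of -2.46 ± 0.41 (SE, filtered adjusted p = 0.0278). Adh1, an alcohol dehydrogenase, had reads in 6 high and 18 low cells and a difference of -3.15 ± 0.59 (SE, filtered adjusted p = 0.0108). Nrgn, a calmodulin-binding protein, had a difference of -1.93 ± 0.37 (SE, filtered adjusted p = 0.0968) and was not called. Snora52 (4 low cells), Dusp4 (8 low and 1 high cell) and Maml2 (8 low cells) rest on few cells, lie below the filter on the mean and have adjusted p of 0.237, 0.237 and 0.256.

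The 14 genes called lower in the filtered fit were Nr4a1, Fos, Itm2b, Impact, Adh1, Klk1b27, Cd69, Btg2, Cd52, Anxa1, Arl4a, Perp, B2m and Suox, of which those not described above are named after their values were seen. Fos, the partner of JUN in AP-1, differed by -2.18, Cd69, an early activation antigen of lymphocytes, by -2.04, and B2m, the light chain of MHC class I, by -0.34. Of the 207 genes called higher, 111 belonged to one of the gene lists and 96 to none. Among the 96 were Arl6ip1 (2.89), Parpbp (4.23), Shcbp1 (4.76), Haus7 (3.66), Nde1 (3.81) and Asf1b (4.24), which were picked with their values in view and for which the value in brackets is the difference in log2(TPM + 1). Haus7 belongs to the augmin complex of the spindle, Nde1 to the dynein machinery of kinetochores and centrosomes, and Asf1b is a histone chaperone.

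T cell identity genes and p53 targets had medians slightly below 0. Of 25 T cell genes 6 were lower and 1 higher at an unadjusted p under 0.05, beside 1.77% and 9.57% of all genes, none of 21 was called, and the median was -0.31, with medians between -0.32 and -0.24 in the 4 cultures. Cd2, an adhesion receptor, had medians of 170 TPM in high and 364 TPM in low cells and a difference of -1.70 ± 0.53 (SE, filtered adjusted p = 0.101). Lef1, a transcription factor of the WNT pathway, had a difference of 1.18 ± 0.56 (SE, filtered adjusted p = 0.336), and Cd4 had reads in 3 high and no low cells. Of 17 p53 targets 3 were lower and none higher at an unadjusted p under 0.05, beside 1.77% and 9.57% of all genes. In the filtered fit 1 of 14 (Perp) was called lower, beside 0.179% of all genes, and the median was -0.21. Gadd45a, which acts in the G2 checkpoint, had reads in 14 high and 23 low cells and a difference of -2.14 ± 0.50 (SE, filtered adjusted p = 0.0704). Cdkn1a (p21), the CDK inhibitor that p53 induces, had a difference of 0.19 ± 0.63 (SE), positive in shLuc #2 (2.29) and negative in the other 3 cultures. Sesn1 had a difference of 0.40 ± 0.77 (SE).

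Growth and housekeeping lists had medians between -0.02 and 0.36. Of 75 cytosolic ribosomal proteins none was higher and 3 were lower at an unadjusted p under 0.05, beside 9.57% and 1.77% of all genes. None of the 75 was called, and the median was -0.02. In 4 of 4 cultures 12 were lower and 4 higher, beside 3% and 13.8% of all genes. The mean level of these genes per cell differed by -0.02 ± 0.31 (SD, exact two-sided p = 0.875, higher in 2 of 4 cultures). Rplp0, a stalk protein of the large subunit, was at a median of 5012 TPM in high and 6187 TPM in low cells, with a difference of -0.23 ± 0.08 (SE, adjusted p = 0.404). Rps12 and Rpl24 had differences of 1.14 ± 0.50 and 0.98 ± 0.46 (SE) and were not called, and that of Rps12 turned to -1.16 in cells thinned to 40000 reads. Of 17 glycolysis genes none passed an unadjusted p under 0.05 and the median was 0.10, which turned to -0.03 with the slope on genes detected removed. Aldoa, an aldolase, was at medians of 19065.5 and 16722 TPM and differed by 0.17 ± 0.11 (SE). Of 41 ribosome biogenesis genes 3 were higher at an unadjusted p under 0.05, beside 9.57% of all genes. Among the 3 were Tbl3 (2.36 ± 0.84) and Wdr75 (2.08 ± 0.78). None of the 41 was called, and the median was 0.36. That median turned to -0.17 with the slope on genes detected removed and to -0.26 when the slope was removed from the score.

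**Figure D5:**
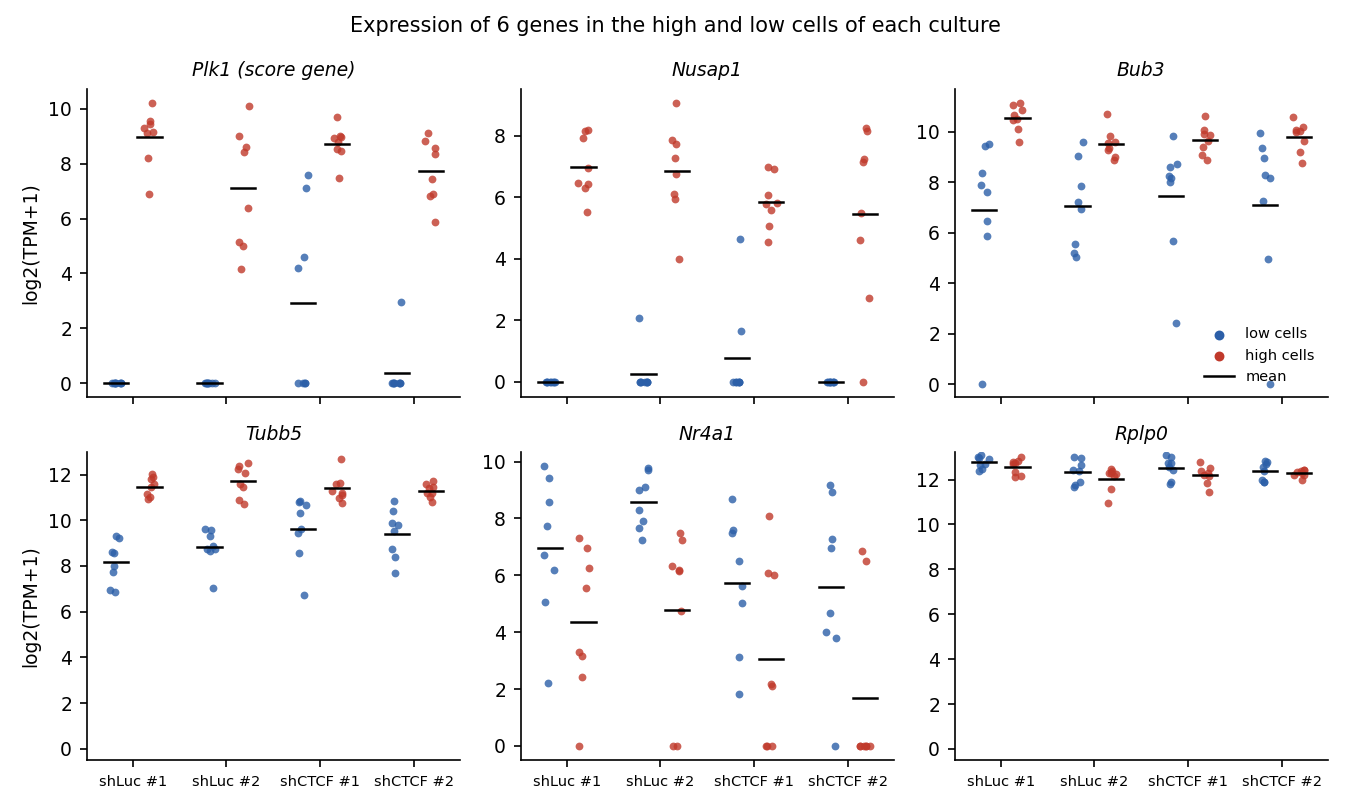
log2(TPM+1) (y axis) of 6 genes in each of the 8 low (blue) and 8 high (red) cells of the 4 cultures (x axis), with the mean as a black line. Plk1 belongs to the score, Nusap1 is at 0 in 29 of 32 low cells, Bub3 and Tubb5 are expressed in nearly every cell but higher in high cells, Nr4a1 is lower in high cells with overlap, and Rplp0 has medians of 5012 and 6187 TPM.

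The high minus low difference was compared between conditions over the 2 shLuc and 2 shCTCF cultures. No gene of 11970 had an adjusted p under 0.05 (0%) by limma, and 648 (5.41%) had an unadjusted p under 0.05. This comparison was not fitted with the filter on the mean, so its result is not comparable with the filtered calls above. The lowest statistics were those of Pcmt1, a protein repair methyltransferase, and Cks1b, a small partner of CDKs. Cks1b differed by 4.69 and 3.74 in the shLuc and by 0.65 and 0.82 in the shCTCF cultures (difference of -3.48 between conditions, adjusted p = 0.818), and Pcmt1 by 4.48 and 4.72 against -0.20 and 0.36 (-4.52, adjusted p = 0.818). In the low cells the mean log2(TPM + 1) of Cks1b was 4.99 and 6.03 in shLuc and 8.67 and 8.89 in shCTCF, while in the high cells it was 9.32 to 9.77 in all 4. Eef2kmt, a lysine methyltransferase of elongation factor 2, had the highest statistic, with -2.59 and -1.90 in shLuc and 2.69 and 2.60 in shCTCF (4.89, adjusted p = 0.818), followed by Ero1lb, an oxidoreductase of the endoplasmic reticulum. The contrast in the score itself was smaller in the shCTCF cultures, as given above, and the part of this in the differences between conditions was not tested.

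The score over all cells kept was compared between conditions as well. Its mean was 3.59 and 3.79 for shLuc #1 and #2 and 5.30 and 4.11 for shCTCF #1 and #2, a difference of 1.02 between condition means (exact two-sided permutation p = 0.333, the smallest that 2 against 2 cultures allow). The difference was 1.71 in experiment 1 and 0.32 in experiment 2. On the scale of the mean TPM of the score genes, log2(mean + 1), the difference was -0.23 (exact p = 0.667), so the direction depends on the scale. The SD of the score over cells was 3.23 and 3.07 in the shLuc cultures and 1.84 and 2.13 in the shCTCF cultures (exact p = 0.333). The number of cells in each culture, 23 or 24, limits the precision of these shapes.

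Finally, each score gene was compared between sides chosen without it, by ranking cells on the mean of the other 9 genes. All 10 were higher in 4 of 4 cultures, with differences from 3.34 (Cenpe) to 7.60 (Ube2c). The 10 genes were chosen together as G2/M genes, so these values are a description and carry no test. When cells were ranked by 51 other G2/M genes, 27 of the 32 high and 24 of the 32 low cells were the same, and the differences of the score genes ran from 3.37 to 7.69. Within cultures, Pearson's r between the score and the mean of the 51 genes was 0.97 in shLuc #1 and shLuc #2, 0.88 in shCTCF #1 and 0.87 in shCTCF #2, over cells that share their library preparation.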

How the data were processed

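Single-cell RNA-seq of 4 cultures of EL4 cells was analysed, with 24 cells sequenced per culture. The authors used STAR to align the reads to GRCm38 and HTSeq to count the unique ones per RefSeq gene, and they deposited 24057 genes as TPM values, which are scaled by gene length and to a fixed sum per cell. Whole reads were recovered from the steps of the TPM values (100% of 504524 values within 0.001 of a whole read) and used for depth and thinning only, since no molecular identifiers are described and no count model fits TPM. For 1336 genes with a value in 1 cell the step could not be checked. The recovered reads ranged from 41591 to 405404 per cell kept, and were fewest in shCTCF #2, with a median of 131098.

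One cell, with 81 genes, was left out. A gene was kept if log2(TPM + 1) exceeded 1 in 2 or more of 95 cells. The mean over 8 cells per culture and side was compared with limma 3.58.1 (R 4.3.3), with the culture as block, eBayes with trend=TRUE and a threshold of 0.05 after Benjamini-Hochberg adjustment. Measures with 1 value per culture were tested two-sided by exact permutation. The culture block is the pairing of the comparison, since both sides come from the same culture. The limma step was also run on cells drawn at random to either side within cultures, with a fixed shift added to a set of genes. That setting does not cover a choice of cells by score, and its outcome is not reported here. The cultures numbered #1 and #2 come from a first and a second knockdown experiment. The limma p-values and SE combine a gene's spread between these 4 cultures with a variance prior drawn from all genes of the fit. The spread gave 3 residual degrees of freedom, and the prior had 2.80 in the fit on all genes and 13.5 in the filtered fit. A filtered p therefore rests more on the variance of other genes than on the gene's own spread between cultures. The score genes chose the cells, and genes outside the score were measured in the same libraries.

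The members, gene lists and tests were chosen with earlier results of these data known. Genes named are Ctcf, the score genes, the 10 highest and 10 lowest limma statistics, the 2 highest and the lowest of each list, and the 2 highest and 2 lowest for the difference between conditions, with exceptions named in the text. Some genes that the rule would name are not reported here. Alternatives covered the scale, the pseudocount, the filters, the number of cells a side, genes detected, depth, the ranking, the block and the cultures. Cells were assigned to cultures by the labels, in which WT stands for shLuc and CTCF-KD for shCTCF.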

Additional observations from a re-analysis of the deposited data

Results flagged for a closer look

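Over the 4 cultures, 107 values were examined for a culture that stands apart from the other 3, and 6 were found, where chance marks about 1 in 20. The difference between high and low cells of Rad51ap1 in shCTCF #1, at 0.80, lay below those of the other cultures, which were 3.99 to 4.49. Aldoa was at 0.58 in shLuc #1 and at 0.01 to 0.06 in the other cultures. Cdkn1a was at 2.29 in shLuc #2 and between -0.67 and -0.23 elsewhere. Rpl24 was at 1.75 in shLuc #2 and between 0.72 and 0.73 elsewhere. Hist1h3b was at -0.69 in shCTCF #1 and at 0 in the other cultures, on reads in 1 low cell. The median difference of replication-dependent histones was 0.72 in shLuc #1 and 0 in the other cultures. For Hist1h3b and for this list the other cultures were all at 0, so there was no spread to measure the value against.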

How the results depend on the processing

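In the comparison of high and low cells over 11970 genes, no gene was called higher or lower. Calls appeared with the mean filter (207 higher and 14 lower), with 11 cells a side (56 and 1), with no replicate block (18 higher, none lower) and, in alternatives added after seeing the data, without genes at 0 in all compared cells (68 and 3) or with the mean filter over the cells of neither side (202 and 13). Of the 56, 54 were also called with the mean filter, as were all 18 and all 68. The number of genes higher at an unadjusted p under 0.05, 1146, fell to 545 on the scale of the mean TPM, 569 with the slope on genes detected removed from the score, 446 with it removed from the genes, 509 in the CTCF-KD cultures, 426 in experiment 1 and 609 in experiment 2, and the number lower, 212, became 371, 451 and 430 in the first 3 of these. With the blocked pairing by experiment, the difference between conditions had 525 of the 11970 genes at an unadjusted p under 0.05 and none at an adjusted p under 0.05.

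With the mean filter, the combinations with other choices were also added after seeing the data. The 207 and 14 genes became 0 and 0 on the scale of the mean TPM, 109 and 38 with the slope on genes detected removed from the score, 62 and 17 with it removed from the genes, and 80 and 0 with no replicate block. The genes called lower were 6 with 6 cells a side and 25 with cells ranked by other G2/M genes. Without each culture in turn the counts ran from 45 to 289 higher and from 2 to 18 lower. Leaving out any culture leaves fewer samples. The counts were 289 and 18 without shCTCF #1, and below 207 and 14 without each of the other cultures. The causes of these changes were not tested.

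Of the score genes re-ranked without themselves, 7 were called with 11 cells a side and none with 8, which is no test, since the 10 genes were chosen together. The difference in score between conditions, 1.02, reversed to -0.23 on the scale of the mean TPM. Reversed differences of single genes were those of Numa1 (-0.63), Suv39h1 (-0.41) and Cd68 (0.25) in the CTCF-KD cultures, Lmna (0.12), Ung (0.44) and Tpi1 (-0.027) in experiment 2, Ier3 with 6 cells a side (-0.27) and in experiment 1 (-0.12), and Rps12 in thinned cells (-1.16), none of which was called. Precision is limited by 8 cells a side and by 98926 to 405404 recovered reads per compared cell, and intervals for counts are not given because reads without molecular identifiers are not independent molecules.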
